A study of Homo sapiens with 8 samples.

Results

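The response of 22RV1 cells to hydrogen peroxide (H2O2) was examined in the 4 libraries of that line, out of 8 libraries in the series. 22RV1 is an established human prostate cancer cell line. 1 pool of cells carried an empty doxycycline-inducible lentiviral vector and the other carried the same vector with the open reading frame of PAGE4, a cancer/testis antigen described as a stress-response protein. Both pools had been selected with puromycin and both were given doxycycline, so the treatment was the only labelled difference within a pool. Each pool was treated with 200 mM H2O2 or with PBS for 12 h, as the labels and the methods give it. A legend of the study gives a lower dose for other measurements, so the dose is printed as labelled and could not be checked. The members were chosen by these labels alone: the H2O2 library was set against the PBS library of the same pool, which gives 2 pairs and 1 library per condition. No condition had a second culture. The tests used the spread between the vector pair and the PAGE4 pair, pooled for the most part over genes. A value given for a library has no replicate error of its own.

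H2O2 is a diffusible oxidant that damages DNA, lipids and proteins and oxidises the cysteines of signalling proteins. Cells are known to answer it through several routes. The transcription factor p53 is stabilised after DNA damage and induces genes of cell cycle arrest, apoptosis and repair. NRF2 is released from KEAP1 when KEAP1 is oxidised and induces genes of glutathione and thioredoxin metabolism. MAP kinases induce AP-1 and other early genes, heat shock factor 1 induces chaperones, and ATF4 is translated when the eIF2 alpha kinases are active.

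The deposited values are read counts per gene, and they were divided by a size factor for each library to give normalized counts. In vector cells the total count was 43310401 with PBS and 34383513 with H2O2, and in PAGE4 cells it was 39220010 and 25482984. The H2O2 library was the shallower of each pair, and the share of reads from the mitochondrial genome was 9.19% and 8.97% in the H2O2 libraries against 12.3% and 10.2% in the PBS libraries. The part of these differences in the results below was not tested. PAGE4 had 1 and 0 reads in the vector libraries and 1489 and 1179 reads in the PAGE4 libraries, which fits the labels of the pools. These reads are not scaled for depth. In the fit described below PAGE4 was not called with H2O2 (log2 0.15, adjusted p = 0.642, edgeR), a value that rests on the PAGE4 pair. The 10 markers of the 22RV1 line summed to between 883 and 2390 CPM (reads scaled to the library total) in the 22RV1 libraries and to between 43.3 and 49.2 in the DU145 libraries. The 11 markers of immune, endothelial and fibroblast cells summed to between 15.0 and 31.6 CPM in 22RV1 cells, with CD3E, PECAM1, CDH5 and DCN at 0 reads in at least 1 library. Of these markers COL1A1, a collagen gene, was called higher with H2O2, from 311.5 to 723.1 normalized counts in vector cells and from 447.0 to 1008 in PAGE4 cells.

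22RV1 cells treated with H2O2 had higher levels of p53-target, early response and many NRF2-target transcripts. They had lower levels of mitotic, DNA replication, androgen-responsive and lipid synthesis transcripts. Other stress groups were mixed (heat shock genes, superoxide and peroxide enzymes) or lower (chaperones of the endoplasmic reticulum). With the quasi-likelihood test of edgeR, the pools as blocks and an adjusted p under 0.05, 5852 of 21127 genes tested were called (27.7%). Of these, 2634 were higher with H2O2 (12.5% of the genes tested) and 3218 were lower (15.2%). Changes of more than 2-fold were found for 848 of the genes called higher and 874 of those called lower, and changes of more than 8-fold for 125 and 35. Without any test, 3718 of the 20264 genes whose normalized counts averaged at least 10 differed by over 1.5-fold in the same direction in both pairs (18.3%), 1736 higher (8.57%) and 1982 lower (9.78%). The balance of directions depended on the scaling. With total counts in place of TMM factors, the median over all genes tested moved by 0.116 on the log2 scale, and 3838 genes were called higher against 2330 lower, so that 62.2% of the calls were higher in place of 45.0%. The number of calls was 3801 with DESeq2's Wald test, 2184 without the pools as blocks and 3702 without the vector pair. With 1 residual degree of freedom, the adjusted p-values rest largely on the spread shared over genes.

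The 12 genes with the highest fitted change, at a mean normalized count of at least 50, held stress genes of several kinds. That mean includes the H2O2 libraries. HSPA6, MMP10 and DLL4, which had few reads with PBS, passed it through their H2O2 values, so their rank partly follows from the rule. HSPA6, an inducible HSP70 chaperone on chromosome 1 from 161524540 to 161526894, had normalized counts of 6.59 with PBS and 2079 with H2O2 in vector cells, and of 3.73 and 26.3 in PAGE4 cells. Both H2O2 libraries were above both PBS libraries, but the change was much larger in the vector pair, at 8.20 against 2.67 on the log2 scale. The fitted log2 change was 7.54 ± 0.48 (SE, adjusted p = 8.27e-11, edgeR). MMP10, a secreted matrix metalloproteinase, went from 4.12 to 470.5 in vector cells and from 1.86 to 77.7 in PAGE4 cells, where the PBS value rests on 2 reads. FOSL1, an AP-1 subunit on chromosome 11 from 65892049 to 65900573, went from 24.7 to 1219.7 in vector cells and from 12.1 to 222.4 in PAGE4 cells (fitted log2 change 5.15 ± 0.29, adjusted p = 1.37e-11, edgeR). The 3 genes shared the order of the libraries, with vector cells with H2O2 highest and PAGE4 cells with PBS lowest.

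GDF15, a secreted cytokine of the TGF-beta family that is a known target of p53 and of ATF4, was the most abundant of the leading genes. Its normalized count was 1239 with PBS and 54507 with H2O2 in vector cells, and 1752 and 49565 in PAGE4 cells. The pairs gave nearly the same level with H2O2, and the fitted fold was 35.2 (log2 5.14 ± 0.12, adjusted p = 4.17e-18, edgeR). The gene lies on chromosome 19 from 18374731 to 18389176. HMOX1, the heme oxygenase that degrades heme, lies on chromosome 22 from 35380361 to 35394214 and went from 124.4 to 5073 in vector cells and from 226.3 to 2629.5 in PAGE4 cells (log2 4.41 ± 0.24, adjusted p = 9.79e-12, edgeR). SRXN1, the sulfiredoxin that repairs overoxidised peroxiredoxins, went from 40.4 to 232.4 and from 10.2 to 248.7, and was with STMN4 the leading gene whose change was larger in the PAGE4 pair. The other leading genes were SERPINB5, GPAT3, ABCB1, DLL4, STMN4 and GRHL3, with fitted log2 changes between 3.21 and 3.58. ABCB1 encodes the drug efflux pump P-glycoprotein, DLL4 a Notch ligand, GPAT3 an acyltransferase of triglyceride synthesis and GRHL3 an epithelial transcription factor.

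The 12 genes with the lowest fitted change included several genes of mitosis. PIF1, a DNA helicase on chromosome 15 from 64815632 to 64825668, had normalized counts of 797.7 and 797.1 in the PBS libraries and of 59.8 and 55.3 in the H2O2 libraries. The pairs were almost superimposed, and the fitted level was 13.8-fold lower with H2O2 (log2 -3.79 ± 0.21, adjusted p = 9.66e-12, edgeR). PLK1, the Polo-like kinase of mitotic entry on chromosome 16 from 23677656 to 23690367, went from 6598 to 1259 in vector cells and from 5821 to 1078 in PAGE4 cells (log2 -2.41 ± 0.10, adjusted p = 1.72e-13, edgeR). KIF20A, a kinesin of cytokinesis, PSRC1, a spindle protein, and FAM64A were lower by a fitted log2 of between -2.40 and -2.32. FAM72B was lower by a similar amount, but it has near-identical copies among which reads may be split. SLC45A3, a prostate-specific membrane protein, went from 3138 to 573.7 and from 4615 to 966.0. FREM1 had 211 and 28 reads in the PBS libraries against 28 and 0 in the H2O2 libraries, so that in PAGE4 cells it was at least 6.6-fold lower against the floor of 3 reads. SHISA3, AC011899.9, APOLD1 and STARD8 made up the rest, at fitted log2 changes between -2.65 and -2.39.

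**Figure D1:**
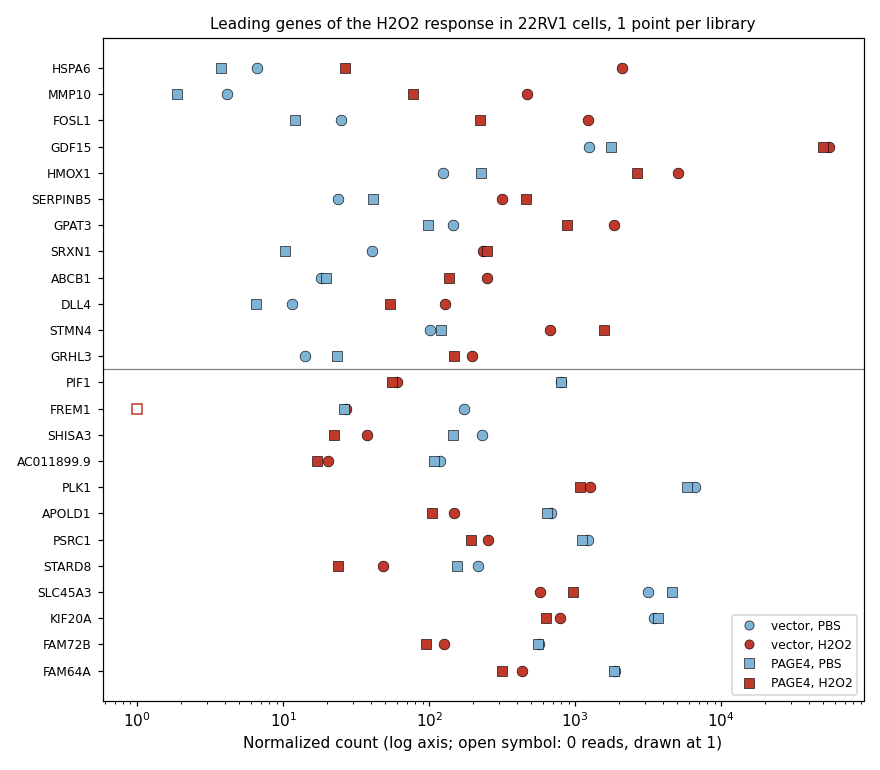
Normalized counts (log axis) of the 12 highest and 12 lowest genes by fitted change, with 1 symbol per library (circles vector, squares PAGE4, blue PBS, red H2O2). For every gene above the line both H2O2 libraries exceed both PBS libraries, and below it they lie lower, except that FREM1 in vector cells with H2O2 (27.0) exceeds PAGE4 cells with PBS (26.1).

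Targets of p53 were higher together. Of 29 targets tested, 26 were called higher and 0 lower, beside 12.5% and 15.2% of all genes tested. The same shares are the background for each list below. Their median log2 change was 1.28 in the vector pair and 1.14 in the PAGE4 pair, against -0.01 in both over all genes.

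Among the genes of cell cycle arrest, 5 of 6 were higher. CDKN1A encodes p21, the inhibitor of cyclin-dependent kinases, and lies on chromosome 6 from 36676460 to 36687337. Its normalized count was 5218 with PBS and 50553 with H2O2 in vector cells, and 6423 and 49811 in PAGE4 cells. The H2O2 libraries were close to each other, and the fitted fold was 8.66 (log2 3.12 ± 0.09, adjusted p = 2.38e-16, edgeR). GADD45A and BTG2, which restrain cell cycle progression, were 7.16-fold and 7.27-fold higher, with larger changes in the vector pair (3.22 and 3.30 on the log2 scale) than in the PAGE4 pair (2.46 and 2.43). SFN, which encodes 14-3-3 sigma, was the member of this group that was not called (log2 -0.13 ± 0.08, adjusted p = 0.271, edgeR).

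Among the apoptosis genes, 9 of 10 were higher. PHLDA3, a repressor of AKT, went from 574.4 to 5823 in vector cells and from 786.9 to 5371 in PAGE4 cells. FDXR, the mitochondrial ferredoxin reductase, went from 626.3 to 2949 and from 839.9 to 3318. The death receptor gene FAS was 4.42-fold higher and the BH3-only gene BBC3 3.53-fold higher by the fit. In neither pair did an H2O2 value of these genes fall within the range of the PBS values. All 9 repair and metabolism targets were higher, with fitted log2 changes between 0.36 and 1.99. Of the regulators, MDM2, the ubiquitin ligase of p53, was 2.34-fold higher, at 5534 and 5448 with PBS and 13421 and 12282 with H2O2.

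**Figure D2:**
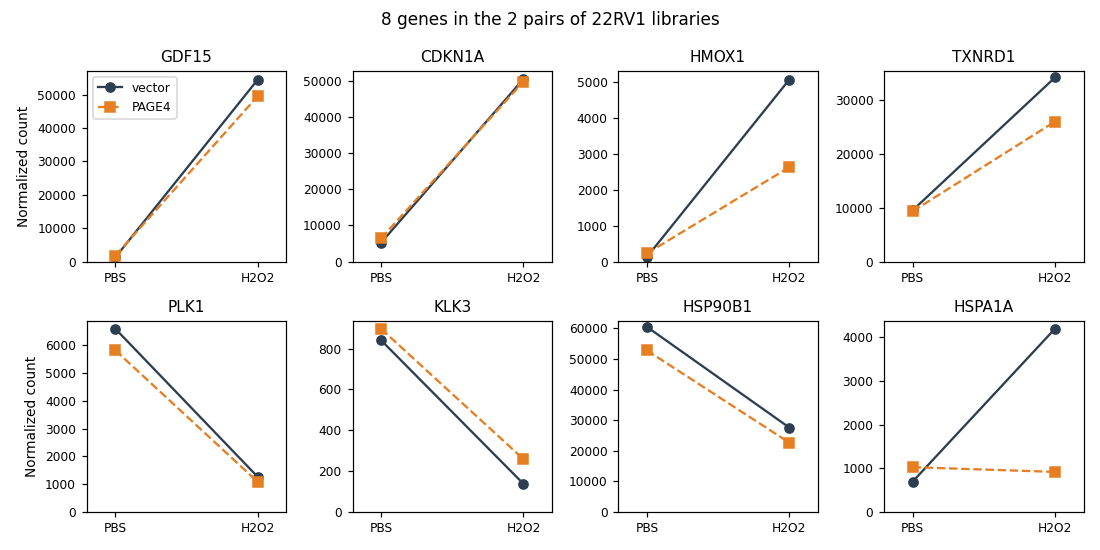
Normalized counts of 8 genes in the 4 libraries, with a line joining the PBS and H2O2 library of each pool (vector solid, PAGE4 dashed). The lines of a gene run in the same direction in both pools for 7 genes, and for HSPA1A the count goes from 690.6 to 4197 in vector cells and from 1022.5 to 914.7 in PAGE4 cells.

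Genes of mitosis were lower in both pools almost without exception. Of 40 genes tested, 39 were called lower and 0 higher, with medians of -1.19 in the vector pair and -1.51 in the PAGE4 pair. This was also the count without the pools as blocks and with total counts. All 12 mitotic kinases and cyclins and all 18 spindle and kinetochore genes were lower. CCNB1, cyclin B1, went from 5132 to 1506 and from 5694 to 1315. CDC20, the activator of the anaphase-promoting complex, went from 8509 to 2537 and from 8597 to 2091. TOP2A, the topoisomerase of chromosome condensation, was 3.56-fold lower, CENPF, a kinetochore protein, 3.95-fold lower and MKI67, the proliferation marker Ki-67, 2.71-fold lower. The change of these genes was slightly larger in the PAGE4 pair than in the vector pair, the reverse of the genes called overall. CDC25B was the gene not called (log2 -0.16 ± 0.09, adjusted p = 0.21, edgeR). In bulk RNA, fewer cells in mitosis and less of a transcript per mitotic cell cannot be told apart.

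Mitotic promoters often hold the cell cycle genes homology region, where complexes bind that repress these genes outside G2 and mitosis. The core letters TTTGAA, searched on both strands of windows from 250 bases before to 50 bases after the RefSeq start (GRCh38.p14), were in 22 of 33 windows of the mitosis genes (66.7%). They were in 10.2% of 12438 windows of genes tested, in 12.0% of those called lower, in 9.36% of those called higher and in 15.4% of all 27305 windows. This motif was chosen after the values were seen, and a match describes letters, not binding. The excerpts below run from 120 bases before to 20 bases after the start, with the motif in capitals, and show how near to the start it lies in genes that were lower: chr16:23678769-23678908 (+ strand) for PLK1, chr15:59105026-59105165 (+ strand) for CCNB2, chr15:40160949-40161088 (+ strand) for BUB1B, chr10:128126404-128126543 (- strand) for MKI67 and chr15:64825628-64825767 (- strand) for PIF1.
PLK1: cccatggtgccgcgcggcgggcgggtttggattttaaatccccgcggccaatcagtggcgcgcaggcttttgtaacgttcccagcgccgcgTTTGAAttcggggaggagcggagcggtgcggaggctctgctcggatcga
CCNB2: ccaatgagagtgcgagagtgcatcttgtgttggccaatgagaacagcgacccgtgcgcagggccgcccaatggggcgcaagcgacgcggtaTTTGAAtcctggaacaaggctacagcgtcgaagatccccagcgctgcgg
BUB1B: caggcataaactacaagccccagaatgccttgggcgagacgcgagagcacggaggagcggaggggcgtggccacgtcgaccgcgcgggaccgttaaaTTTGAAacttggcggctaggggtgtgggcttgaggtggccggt
MKI67: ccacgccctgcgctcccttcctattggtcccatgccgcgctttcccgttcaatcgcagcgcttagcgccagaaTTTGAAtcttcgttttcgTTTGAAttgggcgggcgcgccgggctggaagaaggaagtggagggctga
PIF1: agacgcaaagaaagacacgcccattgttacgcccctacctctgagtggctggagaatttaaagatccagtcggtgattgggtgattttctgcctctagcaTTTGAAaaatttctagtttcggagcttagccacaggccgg
The first base of the motif stood at position -29 in PLK1 and CCNB2, at -23 in BUB1B and at -20 in PIF1, and MKI67 had it at -47, where it overlaps a match to the heat shock element at -44, and again at -29. CCNB2, cyclin B2, was 2.12-fold lower and BUB1B, a kinase of the spindle checkpoint, 2.3-fold lower with H2O2.

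DNA replication genes were lower by less than the mitotic genes. Of 51 tested, 38 were called lower and 1 higher, with medians of -0.47 and -0.55. MCM7, a subunit of the replicative helicase, went from 22133 to 13974 and from 24127 to 14156. Of the licensing genes 13 of 17 were lower, and of the fork and nucleotide genes 17 of 21. CDK6 was the member called higher (1.44-fold). Among 10 genes of the RB family and the CDK inhibitors other than CDKN1A, 5 were lower, with CDKN2C (p18) 3.19-fold lower, and 1 was higher.

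DNA repair genes were also lower on the whole: of 81 tested, 46 were called lower and 3 higher, with medians of -0.47 and -0.45. The shares differed between pathways. Of the Fanconi genes 11 of 12 were lower, and of homologous recombination 13 of 17. Of nucleotide excision repair, 2 of 11 were lower and 1 was higher, ERCC6, beside 15.2% and 12.5% of all genes tested. MDC1, the scaffold of the double-strand break response, went from 15057 to 6987 and from 14719 to 6529. UNG, the uracil glycosylase, was 1.84-fold lower, PRKDC, the kinase of end joining, 1.96-fold lower and BRCA1 1.77-fold lower. POLB, the polymerase of base excision repair, was among the 3 that were higher (1.52-fold).

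**Figure D3:**
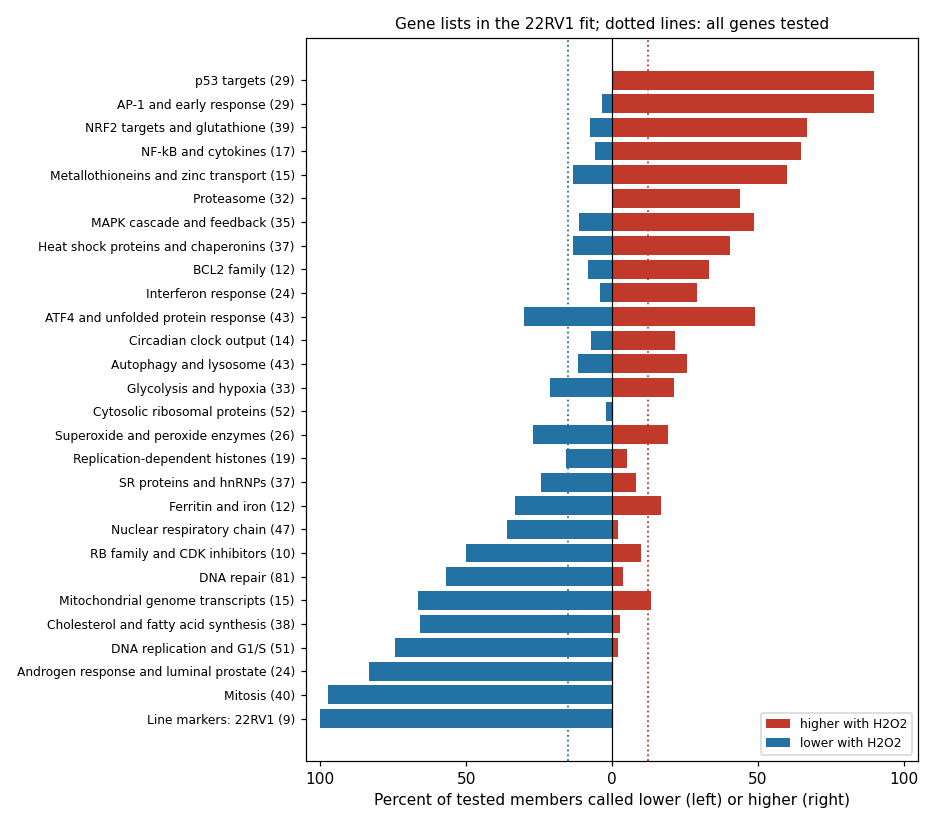
Percent of tested members called lower (left, blue) or higher (right, red) with H2O2 for each gene list with at least 9 tested members, whose number is in parentheses. The dotted lines mark all genes tested (15.2% lower, 12.5% higher), and the lists run from p53 targets at the top to mitosis and the 22RV1 markers at the bottom.

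NRF2 targets and glutathione genes were higher as a list, with clear exceptions. Of 39 tested, 26 were called higher and 3 lower, with medians of 0.65 and 0.52. In the thioredoxin system 5 of 7 were higher, and in heme and quinone detoxification 8 of 9. TXNRD1, thioredoxin reductase 1, lies on chromosome 12 from 104215779 to 104350307 and went from 9523 to 34236 in vector cells and from 9333 to 26039.8 in PAGE4 cells (log2 1.66 ± 0.09, adjusted p = 9.79e-12, edgeR). SQSTM1, the autophagy receptor p62, went from 3668 to 11241 and from 3762 to 11528, nearly the same change in both pools. OSGIN1, an oxidative stress-induced growth inhibitor, was 7.01-fold higher and NQO1, the quinone reductase, 3.12-fold higher.

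Of the glutathione genes, SLC7A11, the cystine transporter, was 2.8-fold higher and GCLM, the modifier subunit of glutamate-cysteine ligase, 2.68-fold higher. The catalytic subunit GCLC moved the other way, from 10107 to 7045 and from 6689 to 5358 (log2 -0.42 ± 0.09, adjusted p = 0.00121, edgeR). CHAC1, which breaks glutathione down, was 6.76-fold higher. The NRF2 gene NFE2L2 itself was not called (log2 0.25 ± 0.11, adjusted p = 0.0901, edgeR), and KEAP1 was 1.38-fold higher. TXN, the thioredoxin gene, was not called (log2 -0.23 ± 0.09).

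NRF2 is known to bind the antioxidant response element. The letters TGACNNNGC, where N is any base, were on either strand in 10 of 33 NRF2-list windows (30.3%), in 15.0% of the windows of genes tested, in 16.2% of those called higher, in 30.8% of the ATF4 and unfolded protein response windows and in 13.6% of all windows. 2 members with a match close to the start are shown, TXNRD1 at chr12:104215659-104215798 (+ strand) and GCLM at chr1:93909411-93909550 (- strand), with the matches in capitals. HMOX1, the highest member, is named without its window.
TXNRD1: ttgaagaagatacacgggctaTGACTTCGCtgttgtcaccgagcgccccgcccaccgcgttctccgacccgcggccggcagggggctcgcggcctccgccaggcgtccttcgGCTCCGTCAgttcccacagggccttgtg
GCLM: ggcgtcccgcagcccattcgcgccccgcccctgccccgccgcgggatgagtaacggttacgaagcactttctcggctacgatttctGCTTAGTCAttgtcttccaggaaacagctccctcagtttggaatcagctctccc

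Enzymes that act on superoxide and peroxide, listed with proteins that repair oxidised protein, did not share this direction. Of 26 tested, 5 were called higher and 7 lower, beside 12.5% and 15.2% of all genes tested, with medians of -0.12 and -0.23. Of these 26, 12 had the repair role, the sestrins among them, with 3 higher and 3 lower. SOD1, the cytosolic superoxide dismutase on chromosome 21 from 31659666 to 31668931, had normalized counts of 4345 and 4691 with PBS and of 4937.5 and 4733 with H2O2, and was not called (log2 0.10 ± 0.09, adjusted p = 0.488, edgeR). CAT, catalase, went from 2378 to 1458 and from 2314 to 1745. The mitochondrial dismutase SOD2, the mitochondrial peroxiredoxin PRDX3 and the lipid peroxidase GPX4 were lower by 1.34-fold, 1.38-fold and 1.33-fold. GPX1 was 1.25-fold higher. The largest changes in this list were those of the sestrins SESN2 (6.77-fold higher) and SESN1 (3.35-fold higher), which are also p53 targets.

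Metallothioneins, small cysteine-rich proteins that bind zinc and copper, were higher in both pools, and 5 of 7 tested were called. With zinc transporters and the regulator MTF1, 9 of 15 were higher and 2 lower. Without the pools as blocks, 0 of the 7 metallothioneins and 4 of the 15 genes were called higher. MT1X went from 811.7 to 1617 and from 325.0 to 1155.5, and MT2A from 7030.1 to 9194 and from 4527.5 to 6237. The metallothionein genes are close copies, so reads may be split among them. SLC30A1, the zinc exporter, went from 1033 to 3804 and from 998.2 to 2025, while the importer SLC39A10 was 1.76-fold lower. The metal response element, searched as TGCNCNC on both strands, was in 8 of 11 windows of this list (72.7%), but also in 63.0% of the windows of genes tested and 55.2% of all windows, so these letters do not set the list apart. MT1X (chr16:56682350-56682489 (+ strand)) and MT2A (chr16:56608464-56608603 (+ strand)) are shown for the repeated matches upstream of their starts. MT1G, 2.02-fold higher, is named without its window.
MT1X: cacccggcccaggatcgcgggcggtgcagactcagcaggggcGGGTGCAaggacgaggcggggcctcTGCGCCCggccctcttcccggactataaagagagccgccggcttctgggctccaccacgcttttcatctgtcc
MT2A: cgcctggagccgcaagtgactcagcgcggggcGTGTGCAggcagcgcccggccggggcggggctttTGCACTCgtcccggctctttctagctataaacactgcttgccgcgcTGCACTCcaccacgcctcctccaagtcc

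Iron genes moved in both directions. The ferritin subunits FTH1 and FTL, which store iron, were higher, FTH1 from 8408 to 13431 and from 6908 to 15461, and FTL by 1.34-fold. Of 4 uptake genes 2 were called lower. TFRC, the transferrin receptor, went from 11778 to 6152 and from 14315 to 6674, and the ferrireductase STEAP3 was 2.57-fold lower. TF, transferrin, was not called (log2 1.25 ± 0.63, adjusted p = 0.15, edgeR), with 18.9 and 5.59 normalized counts in the PBS libraries and 33.8 and 21.1 in the H2O2 libraries. The exporter SLC40A1 was 1.62-fold lower, but was not called without the vector pair (log2 -0.42, adjusted p = 0.232, edgeR). Over the 12 members tested, 2 were higher and 4 lower, beside 12.5% and 15.2% of all genes tested. The median of this list, -0.03, was smaller than the shift of 0.116 that total counts give, so its sign depended on the scaling.

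Early response genes were higher 12 h after the treatment. Of 29 tested, 26 were called higher and 1 lower, with a median of 1.69 in the vector pair and 0.98 in the PAGE4 pair. All 7 AP-1 genes were higher. FOS went from 291.7 to 2214 in vector cells and from 223.5 to 817.3 in PAGE4 cells, and JUN from 1743 to 5641 and from 1929 to 3856. NR4A3, an orphan nuclear receptor, went from 47.8 to 406.9 and from 53.1 to 373.8. EGR1 was 2.41-fold higher by the fit, with log2 changes of 1.99 in the vector pair and 0.52 in the PAGE4 pair. MYC was the member called lower, from 6747 to 2750 and from 6978 to 4344 (log2 -0.99 ± 0.11, adjusted p = 7.67e-07, edgeR).

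In the MAPK list, 17 of 35 genes were higher and 4 lower. The phosphatases that switch MAP kinases off were the clearest group, with 8 of 10 higher. DUSP4 went from 766.4 to 5671 and from 536.4 to 4228.5, DUSP1 from 644.4 to 2359 and from 803.6 to 2523, and DUSP5 from 20.6 to 327.8 and from 28.9 to 117.1. In the ERK branch 2 of 6 genes were higher and 1 lower, and in the JNK and p38 branch 2 of 10 were higher and 3 lower. MAP2K4, an activator of JNK, was 1.32-fold higher. MAPK3, which encodes ERK1, was 1.65-fold lower, MAP2K6, an activator of p38, 3.03-fold lower and ATF2 1.4-fold lower. MAP2K3, of the same branch as MAP2K6, was 1.92-fold higher, with log2 changes of 1.10 and 0.78 in the vector and PAGE4 pairs. In the NF-kB list, 11 of 17 were higher and 1 lower, and 6 were higher without the vector pair or with DESeq2's Wald test. RELB went from 85.7 to 342.3 and from 79.2 to 275.1, and LIF, a cytokine of the IL-6 family, was 6.89-fold higher. NFKBIA, the inhibitor that NF-kB induces, was the lower member (1.55-fold).

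Stress regulators and chaperones of the endoplasmic reticulum moved in opposite directions. Of 43 genes of the ATF4 and unfolded protein response list, 21 were higher and 13 lower. The regulators were higher in 8 of 9 cases and the stress effectors in 7 of 8. ATF4 went from 11910.3 to 27755 and from 12461 to 19359, ATF3 from 652.7 to 3227 and from 645.3 to 2307, and PPP1R15A (GADD34), which restores translation, from 1492 to 11923 and from 1541 to 5352.5. DDIT3 (CHOP) was 2.33-fold higher and the pseudokinase gene TRIB3 2.46-fold higher.

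Of 15 ER chaperone and degradation genes, 12 were called lower and 0 higher, 10 of them by over 1.5-fold in both pairs. HSP90B1 (GRP94) went from 60506 to 27565 and from 52805 to 22631, PDIA4 from 25743 to 7342 and from 18255 to 6430.3, and HSPA5 (BiP) from 34442 to 22152 and from 34575 to 17871. For all 3 genes the H2O2 libraries were the 2 lowest of the 4. CALR, calreticulin, was 1.97-fold lower and DERL3, a component of ER-associated degradation, 3.35-fold lower.

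Heat shock and chaperonin genes had a median change of 0.32 in the vector pair and -0.08 in the PAGE4 pair. Of 37 tested, 15 were called higher and 5 lower, and without the vector pair 6 were higher and 7 lower. HSPA1A, a stress-inducible HSP70, went from 690.6 to 4197 in vector cells and from 1022.5 to 914.7 in PAGE4 cells. It was called higher (log2 1.26 ± 0.34, adjusted p = 0.00756, edgeR), but its change came from the vector pair and had the other sign in the PAGE4 pair. DNAJB1, an HSP40 co-chaperone, behaved alike, with log2 changes of 0.99 and -0.09, and HSPA1B gave 1.05 and 0.12. HSPA1A and HSPA1B are near-identical copies. HSPB8, a small heat shock protein, had a similar change in both pools, from 345.3 to 710.6 and from 289.6 to 613.3. DNAJB2 (log2 1.18 and 0.84), HSPA13 (0.71 and 0.59) and DNAJA4 (1.185 and 0.53) were also higher in both pools. Of the HSP40 genes 6 of 7 were called higher, and of the chaperonin and HSP110 genes 0 of 8, with 2 lower. HSP90AA1 and the mitochondrial chaperonin HSPD1 were each 1.36-fold lower.
The heat shock element, searched as GAANNTTC, was in 11 of 34 windows of this list (32.4%), against 4.8% of the windows of genes tested and 6.87% of all windows. The excerpts show it in genes with a large (HSPA6, chr1:161524420-161524559 (+ strand)), a similar (HSPB8, chr12:119178811-119178950 (+ strand)) and a pool-dependent change (HSPA1A, chr6:31815423-31815562 (+ strand)).
HSPA6: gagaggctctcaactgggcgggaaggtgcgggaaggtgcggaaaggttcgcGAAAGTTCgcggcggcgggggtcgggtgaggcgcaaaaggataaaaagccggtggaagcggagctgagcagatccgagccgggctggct
HSPB8: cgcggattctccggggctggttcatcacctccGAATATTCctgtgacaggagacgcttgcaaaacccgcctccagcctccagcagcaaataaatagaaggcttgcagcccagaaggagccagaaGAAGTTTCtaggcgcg
HSPA1A: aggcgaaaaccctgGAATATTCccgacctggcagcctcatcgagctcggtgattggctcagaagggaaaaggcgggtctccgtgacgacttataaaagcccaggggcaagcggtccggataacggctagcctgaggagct

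**Figure D4:**
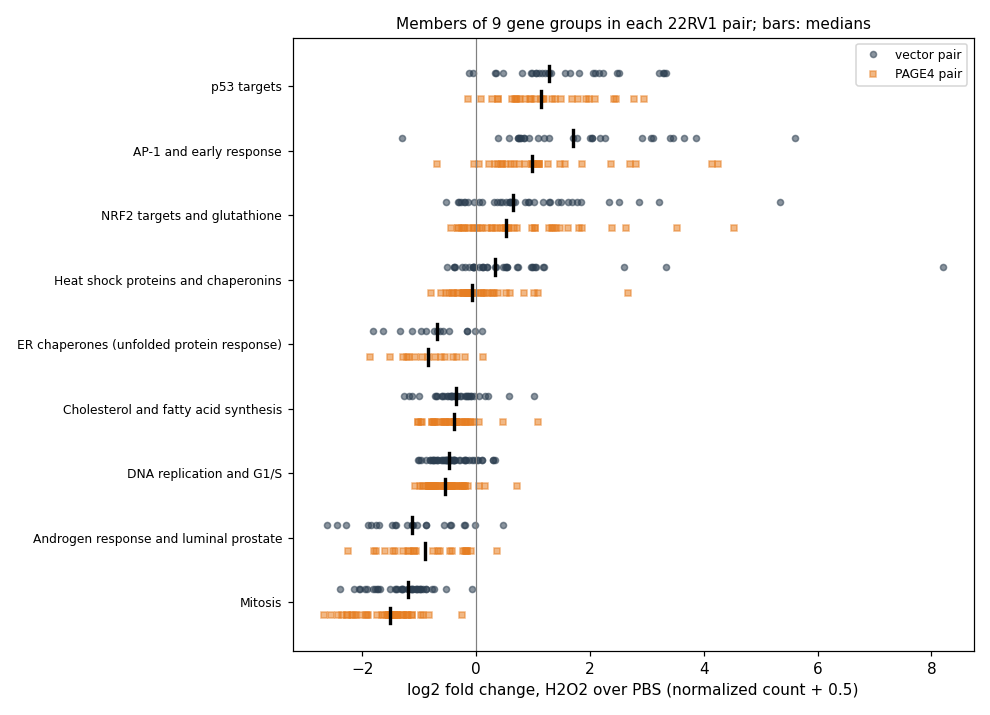
Log2 fold change (H2O2 over PBS, normalized count plus 0.5) of each tested member of 9 gene groups in the vector pair (dark circles) and the PAGE4 pair (orange squares), with the median as a bar. Most p53 targets lie to the right in both pairs and all mitosis genes to the left, and the heat shock group has a median of 0.32 in the vector pair and -0.08 in the PAGE4 pair.

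Proteasome genes were slightly higher, with 14 of 32 called higher and 0 lower and medians of 0.36 and 0.15. PSMC4, an ATPase of the regulatory particle, was the member with the lowest p (1.52-fold higher, adjusted p = 3.5e-05, edgeR). Without the vector pair 4 of the 32 were called. In the autophagy and lysosome list, 11 of 43 were higher and 5 lower, and without the vector pair 4 were higher and 3 lower. GABARAPL1 and MAP1LC3B, which coat the autophagosome, went from 208.5 to 1118 and from 264.5 to 777.8, and from 1956 to 5903.5 and from 2315 to 5259.

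Androgen-responsive genes were lower. Of 24 genes of the androgen response and luminal prostate list, 20 were called lower and 0 higher, with medians of -1.12 and -0.91. KLK3, which encodes prostate-specific antigen, went from 840.6 to 136.9 and from 896.7 to 258.0, and KLK2 from 1979 to 533.2 and from 2673.5 to 793.6. The H2O2 libraries were the 2 lowest for both genes, and the decrease was smaller in the PAGE4 pair. STEAP2, a metalloreductase, was 3.63-fold lower, HOXB13 2.46-fold lower and FKBP5, a co-chaperone of steroid receptors, 2.37-fold lower. All 10 markers of the 22RV1 line belong to this list, and the 9 that were tested were lower.

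Lipid synthesis genes were lower in both pools by similar amounts. Of 38 tested, 25 were called lower and 1 higher, with medians of -0.36 and -0.38. FASN, fatty acid synthase, went from 142563 to 63036 and from 217740.0 to 106705, and ACACA, acetyl-CoA carboxylase, from 12712 to 5822 and from 15547 to 7691. SREBF1, the transcription factor that induces them, was 2.16-fold lower. Of the cholesterol synthesis genes 14 of 20 were lower, and of the fatty acid synthesis genes 7 of 8. These counts depended on the processing. Of the 38 genes, 18 were lower with total counts and 9 without the pools as blocks. Of the cholesterol synthesis genes, 8 and 3 were. Over all genes tested the lower calls also fell, from 3218 to 2330 and 1213. The list median was -0.25 with total counts. MYLIP, a ubiquitin ligase gene induced by sterols, was the member called higher (1.68-fold).

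Transcripts of the mitochondrial genome were lower, with more change in the vector pair. Of 15 tested, 10 were lower and 2 higher, with medians of -0.78 and -0.33, and with DESeq2's Wald test 4 were lower. MT-CO1 went from 715358 to 275964 in vector cells and from 657596 to 419383 in PAGE4 cells, and MT-ND4 was 1.63-fold lower. MT-ND1 was higher, by 1.2-fold. Among nuclear genes of the respiratory chain 17 of 47 were lower and 1 higher, NDUFV2, with medians of -0.20 and -0.25. With total counts 9 of the 47 were lower. In glycolysis 6 of 17 genes were lower and 1 higher, and LDHA was 1.25-fold lower. Of the hypoxia-response genes 6 of 16 were higher and 1 lower. The glycolysis and hypoxia genes together had a fitted median of 0.01, which was -0.18 without the vector pair and 0.12 with total counts. With total counts 13 were higher and 4 lower, in place of 7 and 7, and of the glycolysis genes 5 were higher and 3 lower. The direction of these genes thus depended on the processing. VEGFA was 2.06-fold higher and ADM, adrenomedullin, 4.4-fold higher, while HIF1A was 1.73-fold lower.

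The remaining groups were smaller or had mixed directions. Over all genes tested 15.2% were lower and 12.5% higher, and among protein-coding genes with a mean of at least 50, 21.5% and 17.0%. The counts of the histone and clock lists below were close to these shares. Of the 52 cytosolic ribosomal protein genes, 1 was lower and 0 higher, with fitted log2 changes between -0.22 and 0.39. Among 37 genes of SR proteins, hnRNPs and their kinases 9 were lower and 3 higher, including HNRNPA3 (1.55-fold lower) and CLK1 (1.61-fold higher, but adjusted p = 0.106 without the vector pair, edgeR). Of 19 replication-dependent histone genes, 3 were lower and 1 higher. The medians of these 3 lists lay within 0.116 of 0, the shift that total counts give, so their sign depended on the scaling. In the interferon list 7 of 24 were higher and 1 lower, and without the vector pair 4 were higher. HLA-E, a nonclassical class I gene, was 2.18-fold higher and OAS3 2.34-fold lower. Of 14 clock genes, 3 were higher and 1 lower, with PER2 1.82-fold higher and DBP 2.15-fold lower. Of 12 BCL2 family genes 4 were higher and 1 lower. BAK1, a pore-forming effector, was 2.05-fold higher, MCL1 1.66-fold higher and BCL2 1.72-fold lower.

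The vector pair and the PAGE4 pair gave the same sign for 99.8% of the genes called higher and 99.9% of those called lower, which the test favours by construction. The size differed. The median log2 change of the genes called higher was 0.77 in the vector pair and 0.56 in the PAGE4 pair, and 74.2% of them changed more in the vector pair. For the genes called lower the medians were -0.75 and -0.60, and 66.6% changed more in the vector pair. With 1 library per condition, a difference between the pools and one between libraries cannot be told apart. Across 14609 genes with a mean of at least 50, the log2 changes of the pairs had a Pearson r of 0.78, which is across genes and not replicates. ACTB, the usual reference gene, was not called (log2 -0.01 ± 0.07, adjusted p = 0.955, edgeR), and the study gene ACTA2 was 2.7-fold higher and F2R 2.53-fold lower.

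The share of genes called lower was highest among the longest genes. Among 12441 protein-coding genes with a mean of at least 50, cut into 5 groups of like size by their span in the GENCODE annotation, the share called lower was between 19.1% and 21.6% in the 4 shorter groups and 26.2% in the longest, which span at least 101.8 kb. The share called higher was between 14.9% and 19.0% over the groups.

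The response was set against that of DU145 cells, another prostate cancer line, in a fit of all 8 libraries with the 4 pools as blocks. The change with H2O2 differed between the lines for 3655 of 22418 genes (16.3%), 1964 more positive in 22RV1 cells (8.76%) and 1691 more negative (7.54%). The larger side depended on the processing: 1845 were more positive and 2011 more negative with DESeq2 size factors, 1289 and 1499 with DESeq2's Wald test, and 1715 and 2365 with no filter. It also turned without the 22RV1 vector pair (1903 and 2349) and without the 22RV1 PAGE4 pair (1741 and 2032). Without 1 of the DU145 pairs, the number was 2320 without the vector pair and 2121 without the PAGE4 pair. Of 29 p53 targets, 20 were more positive in 22RV1 cells and 2 more negative. PHLDA3 changed by 3.34 and 2.77 (log2) in the 22RV1 pairs and by 0.96 and 0.49 in the DU145 pairs. Of 42 NRF2 and glutathione genes, 24 were more positive in 22RV1 cells and 2 more negative, and HMOX1 changed by 0.50 and 0.30 in the DU145 pairs. With PBS, HMOX1 had 2207 and 2180 normalized counts in DU145 cells and 124.4 and 226.3 in 22RV1 cells, each line scaled on its own. TXNRD1, SQSTM1, OSGIN1 and CHAC1, the other members with the lowest p, were also at higher counts with PBS in DU145 cells. A smaller change in DU145 cells therefore does not mean a lower level. Heat shock genes went the other way, with 20 of 37 more negative in 22RV1 cells and 2 more positive, and so did the ATF4 and unfolded protein response list, with 22 of 43 more negative and 4 more positive. TFRC was lower in 22RV1 cells (log2 -0.94 and -1.10) and had values of 1.44 and 1.62 in DU145 cells, a difference of -2.51 (adjusted p = 7.3e-11, edgeR). Mitochondrial mRNAs changed less in 22RV1 cells, with 13 of 13 more positive there. The 2 mitochondrial rRNAs went the other way, with 1 more negative in 22RV1 cells. Their medians were 0.96 and 1.16 in the DU145 pairs and -0.04 and -0.24 in the 22RV1 pairs. For mitosis, 14 of 40 genes were more negative in 22RV1 cells and 1 more positive, and the list medians in DU145 cells were -1.14 and -0.90.

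**Figure D5:**
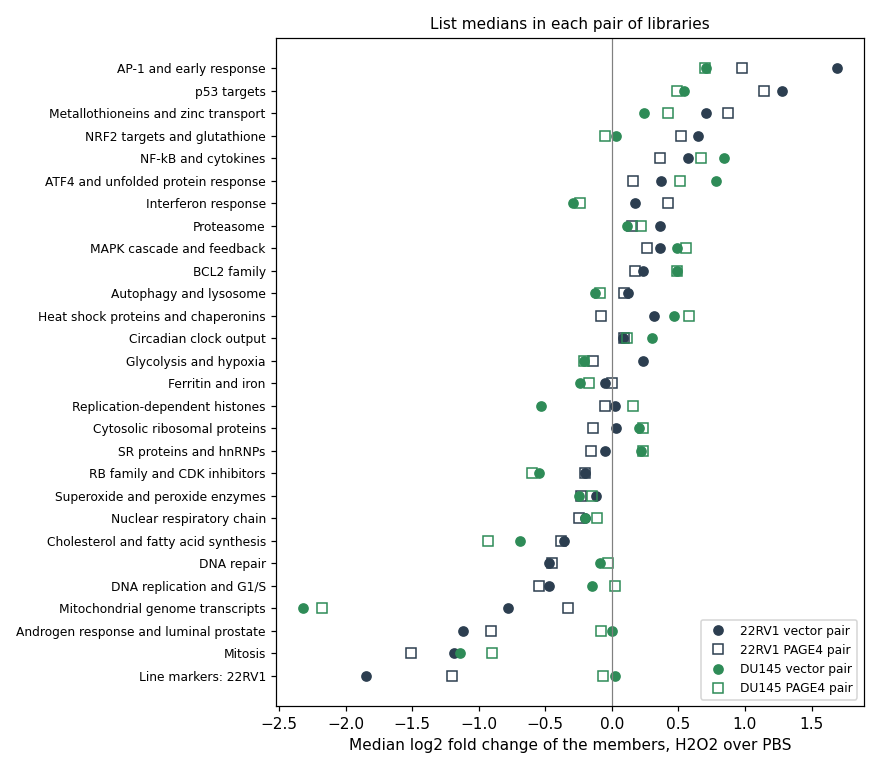
Median log2 fold change (H2O2 over PBS) of the tested members of each list with at least 9 of them, in the 2 pairs of 22RV1 cells (dark) and the 2 pairs of DU145 cells (green), with filled circles for vector and open squares for PAGE4. Mitosis is low in all 4 pairs (-1.51 to -0.90), NRF2 targets are higher in the 22RV1 pairs (0.65 and 0.52 against 0.03 and -0.05), and mitochondrial transcripts are lowest in the DU145 pairs (-2.32 and -2.18).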

How the data were processed

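RNA was sequenced from 4 22RV1 and 4 DU145 libraries. The deposited tables hold raw counts per gene, which the authors made by aligning reads with HISAT2 2.1.0 to GRCh38 and counting with featureCounts 1.6.0. The annotation release, the strand setting and the treatment of multi-mapping reads are not given in the sources used here, so reads of near-identical copies may be split, and a gene and its antisense partner cannot be told apart. As deposited, 26 symbols had been turned into dates and were left as they stood.

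Differences in counts were tested in edgeR 4.0.16 (R 4.3.3) by quasi-likelihood after filterByExpr and TMM, with pools as blocks and Benjamini-Hochberg adjustment over all genes tested. Normalized counts used DESeq2 1.42.0 size factors, and log2 changes of a pair used a pseudocount of 0.5. Total counts ranged from 25482984 to 43310401 per library, so that the floor of 3 reads was between 2.47 and 3.95 normalized counts. Values of a single library carry counting error beside unmeasured culture error. The labels do not say whether libraries came from separate experiments. In the 22RV1 fit a gene's own spread between the pairs had 1 residual degree of freedom. The spread shared over genes counted for a median of 20.98. The p-values thus rest mostly on the shared spread and do not measure spread between replicate cultures. Coordinates came from GENCODE on GRCh38, matched for 33613 of 58828 symbols directly and for 1566 by an older symbol, while 310 were ambiguous. Promoter windows came from RefSeq, also on GRCh38, and were found for 12438 of the 21127 genes tested.

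The members and gene lists were chosen with earlier results of these data known. The text names the 12 highest and 12 lowest fitted changes among genes called, with a mean of at least 50 and over 1.5-fold in both pairs. It also names SOD1 and PAGE4. Of the up to 5 members of each list with the lowest p, it names some and not all. Other genes named were chosen after their values were seen. DESeq2's Wald test, other scalings and filters, the fit without blocks, the fit of all 8 libraries and fits without 1 pair were alternatives. Some genes are not reported here.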

Additional observations from a re-analysis of the deposited data

Results flagged for a closer look

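The genes below, all named above, changed differently with H2O2 in 22RV1 cells and in DU145 cells, by a test of the difference itself in edgeR across the 8 libraries (adjusted p under 0.05). The value in parentheses is the log2 change in 22RV1 cells minus that in DU145 cells. It compares changes and not levels, and the levels with PBS also differed between the lines. Of the genes that led the response, the change was more positive in 22RV1 cells for HSPA6 (2.50), FOSL1 (3.27), GDF15 (2.92), HMOX1 (4.05), SRXN1 (2.85), SERPINB5 (3.50), GPAT3 (2.38), DLL4 (1.43) and GRHL3 (3.87). For HSPA6 this came from the vector pools (8.20 in 22RV1 cells against 5.0 in DU145 cells), and in the PAGE4 pools the change was smaller in 22RV1 cells (2.67 against 5.19). It was more negative in 22RV1 cells for PIF1 (-1.47), PLK1 (-0.90), KIF20A (-0.57), PSRC1 (-0.70), FAM64A (-0.91), FAM72B (-0.97), SLC45A3 (-2.36) and APOLD1 (-1.75). Among p53 targets the difference was positive for CDKN1A (0.99), BTG2 (1.70), PHLDA3 (2.37), FDXR (2.42), FAS (2.27), BBC3 (1.09), MDM2 (0.64) and SESN1 (1.56). SFN (-1.49), another p53 target, had a negative difference. In the cell cycle and repair groups it was negative for CCNB1 (-0.66), CDC20 (-0.94), TOP2A (-0.37), CENPF (-0.49), MCM7 (-0.99), MDC1 (-0.97) and UNG (-1.14). It was positive for CDC25B (0.89). Of the antioxidant, metal and iron genes, positive differences were found for KEAP1 (1.23), TXNRD1 (1.44), SQSTM1 (1.12), OSGIN1 (2.71), NQO1 (2.12), SLC7A11 (1.30), GCLM (1.09), CHAC1 (1.44), MT1X (0.80), FTH1 (0.73) and FTL (0.73). Negative differences in these groups were those of GCLC (-0.58), MTF1 (-0.50), SLC39A10 (-0.58) and TFRC (-2.51). Early response and signalling genes with a positive difference were FOS (1.17), NR4A3 (2.60), EGR1 (1.83), DUSP4 (2.54), DUSP1 (1.04) and LIF (3.13). Those with a negative difference were JUN (-1.11), MYC (-1.43) and NFKBIA (-1.93). Of the protein-folding and ATF4 genes, the difference was negative for DDIT3 (-0.59), TRIB3 (-0.50), HSP90B1 (-0.93), PDIA4 (-0.90), HSPA5 (-1.33), CALR (-0.52), HSPA1B (-1.32), HSP90AA1 (-0.52) and HSPD1 (-0.89). It was positive for ATF4 (0.58) and GABARAPL1 (0.86). Prostate, lipid and other genes with a negative difference were STEAP2 (-0.88), FKBP5 (-0.74), SREBF1 (-0.70), HIF1A (-0.83), CLK1 (-0.70), OAS3 (-0.56) and BCL2 (-1.61). Positive differences outside these groups were found for COL1A1 (1.80), MT-CO1 (1.02), MT-ND4 (1.55), MT-ND1 (2.74), ADM (1.59), ACTB (0.43) and ACTA2 (3.28).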

How the results depend on the processing

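The 5852 calls became 3801 with DESeq2's Wald test and 2184 without the pools as blocks, and ranged from 3702 to 6113 when 1 pair was left out (3702 without the vector pair). They were between 5700 and 6291 with other size factors, total counts, other filters and the fit of all 8 libraries. The 3718 genes over 1.5-fold in both pairs became 7661 with no count minimum, 2229 with a mean of at least 50 and 1461 at 2-fold, and ranged from 6182 to 7580 with 1 pair alone. The 3655 differences between the lines ranged from 2121 to 4252 when 1 pair was left out, the lowest without the DU145 PAGE4 pair (2121) and without the DU145 vector pair (2320). When a pair was left out, the fit used the other 6 libraries of both lines and the lone pair was assumed to vary like the others. The causes were not tested, beyond fewer samples and genes.

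Without the vector pair the log2 change reversed for HSPA1A (-0.17, against 2.56 without the PAGE4 pair) and DNAJB1 (-0.10 against 0.95). The sign also changed for RPS19 (-0.01) and EFEMP1 (0.30 against -1.58). Neither RPS19 nor EFEMP1 was called in the main fit (adjusted p = 0.161 and 0.408, edgeR), so they had no called direction to reverse. The value of PAGE4 without the PAGE4 pair (-2.74, against 0.15 without the vector pair) rests on 1 read against 0 and gives no direction. ACTB was at 0.11 with total counts, which is the shift given to all genes. By the same shift, the medians of the ribosomal protein, SR and hnRNP, and histone lists moved from -0.06, -0.10 and -0.04 to 0.06, 0.02 and 0.07 with total counts. The treatment was paired within pools by the block, and the labels give no replicate numbers beyond that. With 1 library per condition, differences between pools, cultures and libraries cannot be told apart.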
